A study of Mus musculus with 14 samples.

Results

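The oxidative phosphorylation genes were taken by symbol from the deposited expression table: nuclear genes named Nduf (a, b, c, s or v), Cox (4 to 8), Uqcr and Atp5, the genes Sdha, Sdhb, Sdhc and Sdhd, and the protein-coding genes of the mitochondrial genome (mt-Nd, mt-Co, mt-Cytb and mt-Atp). This gave 112 of the 46904 rows, 99 nuclear and 13 mitochondrial, after 13 pseudogene rows ending in "-ps" were left out. The nuclear genes comprised 79 main subunits, 7 second isoforms that replace a main subunit in particular tissues, 8 assembly factors of complex I (Ndufaf1 to Ndufaf8) and 5 rows that GENCODE M39 does not class as protein coding. Of the main subunits, 37 belonged to complex I, 4 to complex II, 8 to complex III, 12 to complex IV and 18 to complex V. Ndufa4 and Ndufa4l2 were counted with complex IV, where the Ndufa4 protein resides. As genes were classed by symbol, the main subunits of complex IV include the factor Cox7a2l and those of complex V the inhibitor Atp5if1. All 112 genes were above 0 in at least 2 libraries and were tested, and 107 had over 3 reads in every library.

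Oxidative phosphorylation makes most of the ATP of a neuron. Complexes I and II pass electrons from NADH and succinate to ubiquinone, complex III passes them to cytochrome c, complex IV passes them to oxygen, and complex V uses the proton gradient built by complexes I, III and IV to make ATP. The mitochondrial genome encodes hydrophobic core subunits of complexes I, III, IV and V and none of complex II, while all other subunits are nuclear, so that each of these complexes is assembled from the products of both genomes. Ischemia removes the oxygen that complex IV reduces, and the brain holds small reserves of energy.

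RNA was measured in whole hemispheres of male C57BL/6J-background mice aged 12 weeks, taken 48 h after transient middle cerebral artery occlusion (MCAO) of 20 min. Wild-type Cort+/+ mice and Cort-/- mice, which lack the neuropeptide cortistatin, had all undergone the occlusion, and the contralateral hemisphere served as the control side. The 14 libraries were 3 Cort+/+ contralateral (replicates 1, 2 and 3), 3 Cort+/+ ischemic (replicates 2, 3 and 4), 3 Cort-/- contralateral (replicates 1, 2 and 3) and 5 Cort-/- ischemic (replicates 1 to 5). The design asks how ischemia alters expression in each genotype and whether loss of cortistatin alters either hemisphere. A whole hemisphere mixes infarct, surrounding tissue and spared tissue, and a library cannot tell fewer cells of a type from less RNA per cell. The labels do not say which libraries share an animal.

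Values are RPKM, a read count scaled for gene length and library size, and were tested as log2(RPKM + 0.1) with limma, with adjusted p under 0.05 as the threshold. The libraries held 25991114 to 43034551 reads on genes. Cort itself lay at 2.61 to 5.68 RPKM in the 6 Cort+/+ libraries and at 0 to 0.136 RPKM in the 8 Cort-/- libraries. Summed neuron markers were 3467 to 4079 RPKM in Cort+/+ contralateral and 3203 to 3582 in Cort+/+ ischemic libraries, against 3564 to 3685 and 3092 to 3374 in Cort-/- mice. Summed microglia and macrophage markers were 179 to 239 and 266 to 506 RPKM in Cort+/+ mice and 186 to 236 and 324 to 619 RPKM in Cort-/- mice, with 12 of 12 higher in the ischemic hemisphere of each genotype and 9 of 12 called in Cort-/- mice, where limma called 1.72% of all genes. None of these markers was at 0 in all libraries. Cort+/+ contralateral replicates 2 and 3 and Cort+/+ ischemic replicates 2 and 4 stood apart from the other 10 libraries by high mitochondrial tRNA values, which are given with mt-Nd3.

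Parts of the mitochondrial genome have a near-identical copy in the nuclear genome, and this bears on which mitochondrial rows can be read as levels. In GRCm39, bases 6394 to 9828 of the mitochondrial genome matched chromosome 1, 24651831 to 24655265, minus strand, at all but 1 base, and bases 9821 to 11042 matched chromosome 1, 24650616 to 24651837, with 0 differing bases. The only substitution between them in these 3435 and 1222 bases was T9461C, counted on the mitochondrial genome with the mitochondrial base first, and it lies at the third base of mt-Nd3 (9459 to 9806). Only substitutions were listed, so reads across an inserted base or across the ends of the stretches could also tell the sources apart. The 61 bases around T9461C are shown from both places, on the strand of mt-Nd3, with the differing base in capitals. A read over it can tell the sources apart by sequence.
mitochondrial genome, chrM:9431-9491, plus strand: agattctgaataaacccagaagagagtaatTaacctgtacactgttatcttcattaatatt
chromosome 1 copy, chr1:24652168-24652228, minus strand: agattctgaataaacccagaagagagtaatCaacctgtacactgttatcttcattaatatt

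Which of these bases the reads carried was not analysed here. Of the 100-base windows of each gene, all those of mt-Co2 (7013 to 7696), mt-Atp8 (7766 to 7969), mt-Atp6 (7927 to 8607), mt-Co3 (8607 to 9390) and mt-Nd4l (9877 to 10173) occurred elsewhere in the genome, as did 98.8% of those of mt-Nd3. The shares were 60.8% for mt-Nd4, 30.8% for mt-Co1, 3.19% for mt-Nd2 and 0 for mt-Nd1, mt-Nd5, mt-Nd6 and mt-Cytb. The copy's 6 rows on chromosome 1 were listed at 0.347 to 29.0 RPKM. Reads that match both places can be dropped or assigned to either, and the counting rule is not given in the sources used here. The first 6 genes are therefore described below as shared and the other 7 as less shared. Among nuclear members classed as protein coding the highest share was 19.2% (Ndufa12), and 63 nuclear members had none.

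All main subunits were well expressed, from 9.81 RPKM for Ndufab1, the acyl carrier protein of complex I, to 533 RPKM for Atp5f1b, the catalytic beta subunit of ATP synthase. The median level per length of the nuclear main subunits was 56.2 RPKM in complex I, 62.4 in complex II, 108 in complex III, 162 in complex IV and 98.8 in complex V. The lowest of these 79 genes in any library still had 468 reads. The less shared mitochondrial genes other than mt-Nd6, which had a mean of 87.0 RPKM, lay far above them, with mt-Co1, a catalytic core subunit of complex IV, at a mean of 8342 RPKM, mt-Cytb of complex III at 5947 RPKM and mt-Nd1 of complex I at 5580 RPKM. The shared genes mt-Co2, mt-Co3, mt-Atp6, mt-Atp8 and mt-Nd4l were listed at means of 8.97 to 14.7 RPKM, although they belong to the same polycistronic transcript as mt-Co1.

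None of the 112 genes was called between hemispheres in either genotype. In Cort+/+ mice limma called 5 of the 46102 genes tested, 0.0108%, and 0 of 112 members, with 8 members higher and 3 lower at an unadjusted p under 0.05, that is 7.14% and 2.68% of the members against 4.88% and 2.99% of all genes tested and 7.24% and 4.83% of the 15063 genes averaging 1 RPKM or more. Cort-/- mice had more calls, as limma called 792 genes, 1.72%, but again 0 of 112 members, with 14 higher and 4 lower at an unadjusted p under 0.05, 12.5% and 3.57% of the members against 6.66% and 6.05% of all genes and 11.6% and 12.9% of those averaging 1 RPKM or more. The Cort-/- groups held 3 and 5 libraries and the Cort+/+ groups 3 each, with median SEs over all genes of 0.162 and 0.181. The study's own test on counts listed more genes in each genotype, so few calls in Cort+/+ mice partly reflect the test used here. limma-voom on the recovered reads called 0 and 1 members in these contrasts, the latter being Atp5mf. The intervals were narrow for the nuclear subunits. The 95% interval of the log2 fold change lay within 0.5 of 0, that is within 1.41-fold, for 78 of 79 main subunits in Cort+/+ mice and for 79 of 79 in Cort-/- mice, against 1 of 13 mitochondrial genes in each genotype.

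The nuclear and mitochondrial genes lay on opposite sides of 0. The median log2 fold change, ischemic over contralateral, was 0.05 for the nuclear genes and -0.31 for the mitochondrial genes in Cort+/+ mice, and 0.08 and -0.33 in Cort-/- mice, against 0.00 for all genes tested and -0.02 and -0.03 for the 15063 genes averaging 1 RPKM or more. Main subunits were higher in the ischemic hemisphere for 61 of 79 genes in Cort+/+ and 68 of 79 in Cort-/- mice, compared with 44.7% and 40.8% of genes averaging 1 RPKM or more. Mitochondrial genes were lower for 12 of 13 in each genotype, mt-Nd6 being the exception. The SD of the nuclear median between libraries of a group was 0.054, pooled over groups. Without Cort+/+ contralateral replicate 2, which had the lowest summed nuclear level of its group, the Cort+/+ nuclear median was -0.0011. The Cort+/+ mitochondrial median ran from -0.53 to -0.087 when 1 library was left out, the latter without Cort+/+ contralateral replicate 3, and was -0.59 with the replicate number as a block. Without the 4 Cort+/+ libraries that stood apart, which leaves 1 library in each Cort+/+ group and was chosen after seeing the data, the Cort+/+ medians were -0.05 for the nuclear genes and -0.11 for the 11 mitochondrial genes other than mt-Nd2 and mt-Nd3. With all libraries, both signs were the same under the 4 other scalings tried in each genotype.

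**Figure D1:**
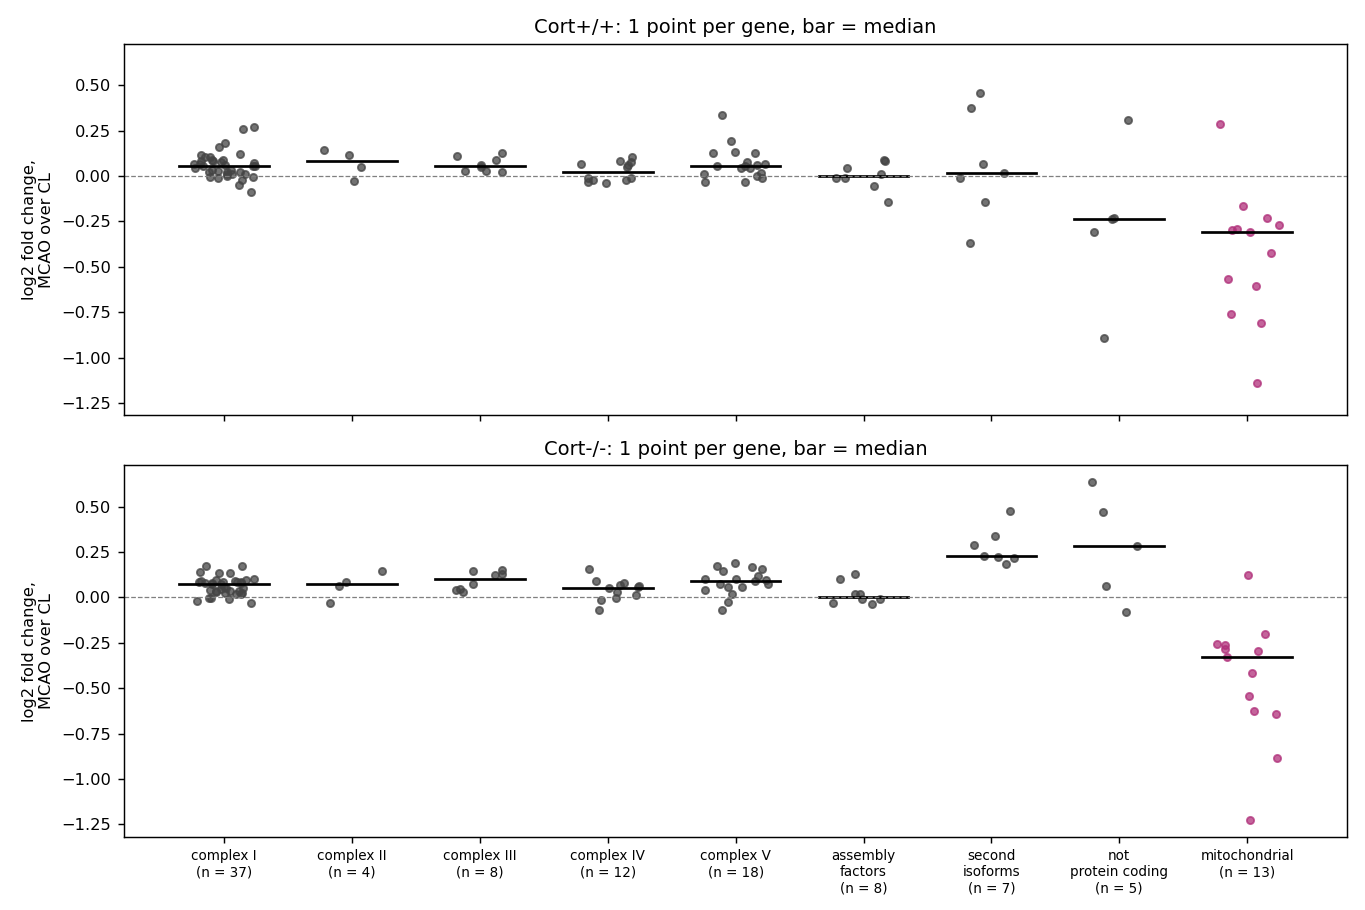
Log2 fold change, ischemic (MCAO) over contralateral (CL) hemisphere, of the 112 genes by class, in Cort+/+ mice (top) and Cort-/- mice (bottom), with 1 point per gene and bars at class medians. The nuclear main subunits of complexes I to V crowd just above 0 in both genotypes, with medians between 0.02 and 0.10, and 12 of 13 mitochondrial genes lie below 0.

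The median of the complex I main subunits was 0.05 in Cort+/+ and 0.07 in Cort-/- mice, with 30 and 32 of 37 higher in the ischemic hemisphere. Complex II had 0.08 and 0.07 with 3 of 4 higher in each, and complex III had 0.05 and 0.10 with 8 of 8 higher in each. Complex IV had the lowest medians, 0.02 and 0.05, with 6 and 9 of 12 higher, and complex V had 0.06 and 0.09 with 14 and 16 of 18 higher. No difference between complexes was tested. Across the 79 main subunits the fold changes of the 2 genotypes, which share no library although all genes of a library share its depth, had a Pearson r of 0.63 and a Spearman rho of 0.63, and 55 genes were higher in both. Over the 15063 genes averaging 1 RPKM or more, r was 0.78 and rho 0.63.

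Shorter genes as a class had higher ischemic values in these libraries. Over 6306 genes outside the set averaging 10 RPKM or more, the Spearman correlation across genes between the log2 fold change and the length behind the RPKM value was -0.32 in Cort+/+ and -0.41 in Cort-/- mice. In the 79 main subunits it was -0.16 and -0.31. The shortest 26 main subunits had medians of 0.06 and 0.09 and the longest 26 had 0.04 and 0.05, while the short and long groups of the other genes had 0.02 and 0.03 against -0.05 and -0.10. The part of gene length in the nuclear medians was not tested.

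Every ischemic library lay above every contralateral library for 12 nuclear members in Cort+/+ mice and for 12 in Cort-/- mice, and for no mitochondrial member. This is 12 of 112 in each genotype, where 5.73% and 4.85% of all genes tested, and 8.19% and 8.85% of those averaging 1 RPKM or more, had the same pattern. Every ischemic library lay below every contralateral library for 3 members in Cort+/+ and 4 in Cort-/- mice. The same held for 4.11% and 4.27% of all genes, and for 7.29% and 9.43% of those averaging 1 RPKM or more. The 5 genes higher without overlap in both genotypes (2.13% of all genes) were Atp5f1e, Atp5mc2, Atp5mf and Atp5mj of complex V and Ndufc1 of complex I. All encode small proteins, Atp5f1e the epsilon subunit of the F1 rotor, Atp5mc2 a precursor of the c-ring, Atp5mf and Atp5mj small subunits of the membrane part, and Ndufc1 an accessory subunit of complex I.

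Atp5f1e (chromosome 2, 174302861 to 174305906, minus strand) had the lowest p in Cort+/+ mice. Its levels were 88.9, 77.1 and 71.6 RPKM in the Cort+/+ contralateral libraries 1, 2 and 3 and 108.6, 92.7 and 97.98 RPKM in the ischemic libraries 2, 3 and 4. The Cort-/- levels were 77.3, 80.3 and 84.1 RPKM on the contralateral side and 97.9, 95.2, 89.7, 88.8 and 88.7 RPKM on the ischemic side. Neither genotype showed overlap between hemispheres. The log2 fold change was 0.34 (SE 0.079, 95% interval 0.17 to 0.51, limma adjusted p = 0.213) in Cort+/+ and 0.19 (SE 0.070, adjusted p = 0.234) in Cort-/- mice.

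Atp5mj (chromosome 12, 111925397 to 111933510, minus strand) had 57.1, 54.5 and 54.2 RPKM in Cort+/+ contralateral and 65.0, 60.8 and 63.8 RPKM in Cort+/+ ischemic libraries. Its Cort-/- levels were 51.8, 51.3 and 53.3 RPKM against 61.7, 58.1, 53.6, 57.1 and 58.6 RPKM, so that the third ischemic library stood just above the contralateral ones. The log2 fold changes were 0.19 (limma adjusted p = 0.271) and 0.15 (adjusted p = 0.139). Atp5mf (log2 fold change 0.13 and 0.15) and Atp5mc2 (0.12 and 0.17) had limma adjusted p of 0.542 and 0.141, and of 0.64 and 0.146.

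Complex I subunits stood beside them. Ndufc1 had 16.1, 18.6 and 14.9 RPKM in Cort+/+ contralateral and 20.9, 18.7 and 20.2 RPKM in Cort+/+ ischemic libraries, a log2 fold change of 0.27 (limma adjusted p = 0.245). The Cort+/+ groups were only just apart, at 18.6 against 18.7 RPKM, and without that contralateral library, replicate 2, the fold change was 0.36 with adjusted p = 0.0449. In Cort-/- mice Ndufc1 had 17.1, 17.4 and 17.0 RPKM against 19.4, 19.1, 18.7, 18.5 and 18.5 RPKM, a log2 fold change of 0.13 (limma adjusted p = 0.377). Ndufb1, another accessory subunit, had 26.2, 24.4 and 23.8 RPKM against 30.9, 27.6 and 30.8 RPKM in Cort+/+ mice, a log2 fold change of 0.26 (limma adjusted p = 0.213). Its Cort-/- groups overlapped, at 24.7, 26.8 and 24.9 RPKM against 28.6, 28.1, 25.8, 27.6 and 25.9 RPKM, with a log2 fold change of 0.10 (limma adjusted p = 0.527).

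**Figure D2:**
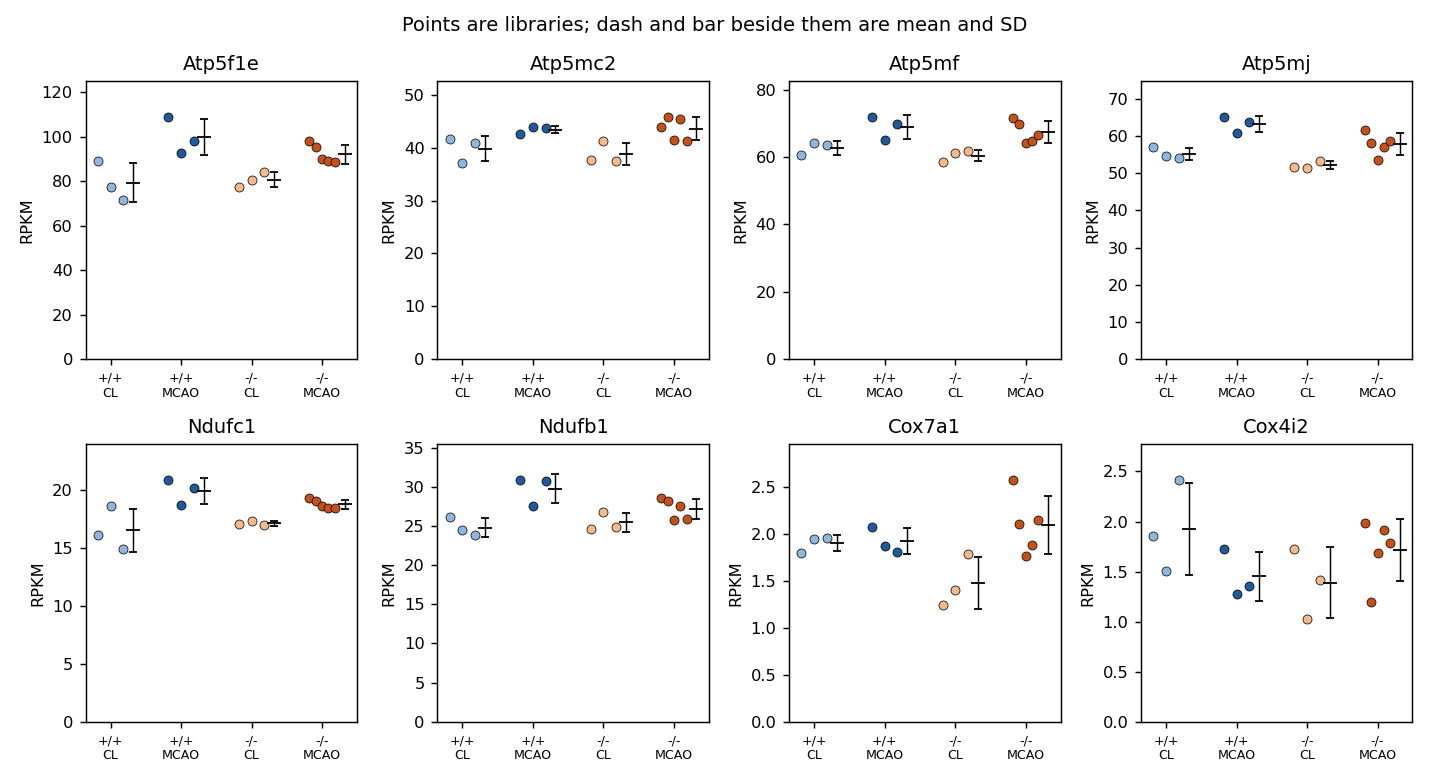
RPKM of 8 nuclear genes in each library, with the 4 groups along the horizontal axis and group mean and SD beside the points. Atp5f1e, Atp5mc2, Atp5mf, Atp5mj and Ndufc1 show no overlap between hemispheres in either genotype, and the second isoforms Cox7a1 and Cox4i2 lie between 1.03 and 2.58 RPKM, with hemispheres that overlap in each genotype.

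Among the core subunits, which were chosen by role, none was called between hemispheres. Ndufs1 and Ndufv1, the subunits through which electrons from NADH enter complex I, had log2 fold changes of 0.02 and 0.04 in Cort+/+ and of 0.02 and -0.00 in Cort-/- mice. Ndufs1 had 50.1 ± 1.57 RPKM (SD, n = 3) in contralateral and 50.8 ± 2.07 RPKM (SD, n = 3) in ischemic Cort+/+ hemispheres, and the 95% interval of its fold change was -0.11 to 0.15. Sdha, the flavoprotein of succinate dehydrogenase, had 139 ± 2.34 and 137 ± 6.68 RPKM (SD, n = 3 each) in Cort+/+ mice, with an interval of -0.12 to 0.07. Sdhb, its iron-sulfur subunit, had 0.12 and 0.15 in Cort+/+ and Cort-/- mice, with intervals of -0.07 to 0.30 and -0.02 to 0.31.

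In complex III, Uqcrc1, a core protein, had log2 fold changes of 0.02 and 0.05 and Uqcrfs1, the Rieske iron-sulfur protein, had 0.05 and 0.03. In complex IV, Cox4i1 had 435 ± 50.2 RPKM contralateral and 452 ± 18.3 RPKM ischemic (SD, n = 3 each) in Cort+/+ mice, a log2 fold change of 0.06 that was also 0.06 in Cort-/- mice. Cox5a had 0.08 and -0.00. The alpha and beta subunits of the catalytic head of complex V had 0.01 and -0.03 (Atp5f1a) and 0.06 and 0.06 (Atp5f1b), with Atp5f1b at 531 ± 37.1 and 552 ± 23.7 RPKM (SD, n = 3 each) in Cort+/+ hemispheres. Its 95% interval was -0.07 to 0.18 in Cort+/+ and -0.05 to 0.17 in Cort-/- mice. Atp5if1, the inhibitor that blocks ATP hydrolysis by complex V when the proton gradient fails, had 0.06 (interval -0.08 to 0.19) and 0.10 (interval -0.03 to 0.22), and its Cort-/- hemispheres did not overlap. The other c-ring precursors, Atp5mc1 and Atp5mc3, had -0.03 and 0.07 in Cort+/+ mice and -0.07 and 0.02 in Cort-/- mice.

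The 7 second isoforms were low, and their group means ran from 0.349 RPKM (Cox7b2, Cort-/- contralateral) to 6.52 RPKM (Cox6a2, Cort-/- ischemic), where their main counterparts Cox7b and Cox6a1 had group means of 92.0 to 104 and 321 to 353 RPKM. All 7 in Cort-/- mice were higher on the ischemic side, with a median log2 fold change of 0.23, and in Cort+/+ mice 4 of 7 were, with a median of 0.01. None passed the test. Cox7a1, the heart and muscle form of the subunit otherwise made from Cox7a2, had the lowest p of any member in Cort-/- mice. It had 1.25, 1.41 and 1.79 RPKM contralateral against 2.58, 2.11, 1.77, 1.88 and 2.15 RPKM ischemic, and the highest contralateral library lay just above the lowest ischemic library. The log2 fold change was 0.48 (SE 0.127, limma adjusted p = 0.0859, and 0.0426 when genes under a mean of 0.5 RPKM were left out).

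In Cort+/+ mice Cox7a1 had 1.80, 1.95 and 1.95 RPKM against 2.08, 1.88 and 1.81 RPKM, a log2 fold change of 0.01. Cox7a2 had 0.06 and 0.01 in the 2 genotypes, and Cox7a2l, a factor that joins complexes III and IV, had 0.07 and 0.16. Cox4i2, the form of subunit 4 associated with oxygen sensing, had 1.85, 1.50 and 2.41 RPKM against 1.73, 1.27 and 1.35 RPKM in Cort+/+ mice and 1.73, 1.03 and 1.41 RPKM against 1.98, 1.20, 1.68, 1.91 and 1.79 RPKM in Cort-/- mice. Its log2 fold changes were -0.37 (limma adjusted p = 0.788) and 0.29 (adjusted p = 0.619) with overlapping groups. The others in Cort+/+ and Cort-/- mice were 0.06 and 0.34 for Cox6a2, 0.46 and 0.23 for Cox6b2, 0.38 and 0.22 for Cox7b2, -0.14 and 0.22 for Cox8b and -0.01 and 0.18 for Ndufa4l2.

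Summed vessel markers, like those of microglia and macrophages, were higher on the ischemic side in Cort-/- mice. Summed mural cell markers were 58.7 to 63.5 RPKM contralateral and 71.0 to 82.2 RPKM ischemic in Cort-/- mice, against 60.8 to 69.8 and 68.2 to 74.2 RPKM in Cort+/+ mice. Summed endothelial markers were 58.7 to 68.4 and 76.0 to 96.3 RPKM in Cort-/- mice and 69.9 to 83.0 and 76.1 to 86.8 RPKM in Cort+/+ mice. Of the mural markers 7 of 10 were higher in each genotype, and of the endothelial markers 10 of 10 in Cort-/- and 8 of 10 in Cort+/+ mice, with 2 of each list called in Cort-/- and none in Cort+/+ mice. In Cort-/- mice limma called 1.72% of all genes, and also 6 of 10 striatal neuron, 2 of 10 astrocyte and 1 of 15 neuron markers. No oligodendrocyte, oligodendrocyte precursor, ependymal and choroid plexus or blood marker was called there. Their part in the isoform values was not tested.

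The 8 complex I assembly factors, proteins that build the complex without staying in it, had a median of 0.00 in Cort+/+ and of 0.01 in Cort-/- mice, with 4 of 8 higher in each. Ndufaf1 had 11.3, 12.3 and 12.2 RPKM against 10.9, 10.4 and 11.1 RPKM in Cort+/+ mice, the only nuclear member whose ischemic libraries all lay below the contralateral ones there. Its log2 fold change was -0.14 (limma adjusted p = 0.564), and it was -0.04 in Cort-/- mice. The 5 rows that are not classed as protein coding (Ndufs6b, Cox6c2, Ndufb4c, Ndufa11b and Ndufb4b) had group means of at most 0.872 RPKM and at most 3 reads in some library, and their fold changes, -0.89 to 0.63 over both genotypes, had no 95% interval within 1 of 0.

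Among the mitochondrial genes, mt-Nd1 (2751 to 3707), which shares no window with the nuclear genome, had 4955, 6815 and 9463 RPKM in Cort+/+ contralateral libraries 1, 2 and 3 and 5568, 5094 and 6110 RPKM in ischemic libraries 2, 3 and 4. The Cort-/- libraries had 5832, 6355 and 5038 RPKM contralateral and 4942, 3889, 4586, 4470 and 4999 RPKM ischemic. The Cort+/+ hemispheres overlapped, the third contralateral library being the highest of all 14, and the Cort-/- hemispheres did not overlap. The log2 fold changes were -0.29 (95% interval -0.71 to 0.12, limma adjusted p = 0.837) and -0.33 (interval -0.70 to 0.04, adjusted p = 0.476).

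For the other less shared genes of the heavy strand, in Cort+/+ and Cort-/- mice the log2 fold changes were -0.31 and -0.30 for mt-Nd2, -0.27 and -0.28 for mt-Nd4, -0.30 and -0.26 for mt-Nd5, -0.23 and -0.25 for mt-Cytb and -0.16 and -0.20 for mt-Co1. In Cort+/+ mice the value of mt-Nd2 was -0.00060 without contralateral replicate 3. mt-Co1, the most abundant member, had 8373, 9043 and 10843 RPKM against 8009, 8445 and 8614 RPKM in Cort+/+ mice. In Cort-/- mice it had 8670, 9230 and 8002 RPKM against 7251, 6604, 7704, 7907 and 8097 RPKM, and its hemispheres overlapped in each genotype. Of the less shared genes, mt-Nd1 and mt-Nd4 had Cort-/- hemispheres that did not overlap.

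The 6 shared genes had larger and less certain differences, with a median of -0.68 in Cort+/+ and of -0.63 in Cort-/- mice against -0.27 and -0.26 for the 7 less shared genes. mt-Atp8, an accessory subunit of complex V, had 14.9, 12.0 and 35.7 RPKM against 4.50, 11.8 and 11.1 RPKM in Cort+/+ mice and 18.5, 13.4 and 9.84 RPKM against 7.77, 3.16, 4.82, 5.75 and 8.82 RPKM in Cort-/- mice. mt-Nd4l of complex I had 10.3, 11.002 and 20.9 RPKM against 6.74, 8.66 and 8.27 RPKM, and 8.79, 10.53 and 9.15 RPKM against 7.27, 3.87, 6.50, 5.08 and 8.52 RPKM. These were the only members lower without overlap in both genotypes, 2 of 112, where 482 of all 46102 genes were.

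The log2 fold changes of mt-Atp8 were -1.14 (SE 0.472, limma adjusted p = 0.568) and -1.22 (SE 0.422, adjusted p = 0.198), and those of mt-Nd4l were -0.76 (adjusted p = 0.487) and -0.64 (adjusted p = 0.279). mt-Atp6 had -0.81 and -0.88, mt-Co3 -0.61 and -0.63, and mt-Co2 -0.43 and -0.54. The summed copy rows of chromosome 1 had 63.1 ± 20.4 and 43.1 ± 6.39 RPKM (SD, n = 3 each) in Cort+/+ mice and 54.2 ± 14.6 (SD, n = 3) and 36.9 ± 4.90 RPKM (SD, n = 5) in Cort-/- mice. How reads were divided between the copy and these genes was not tested.

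**Figure D3:**
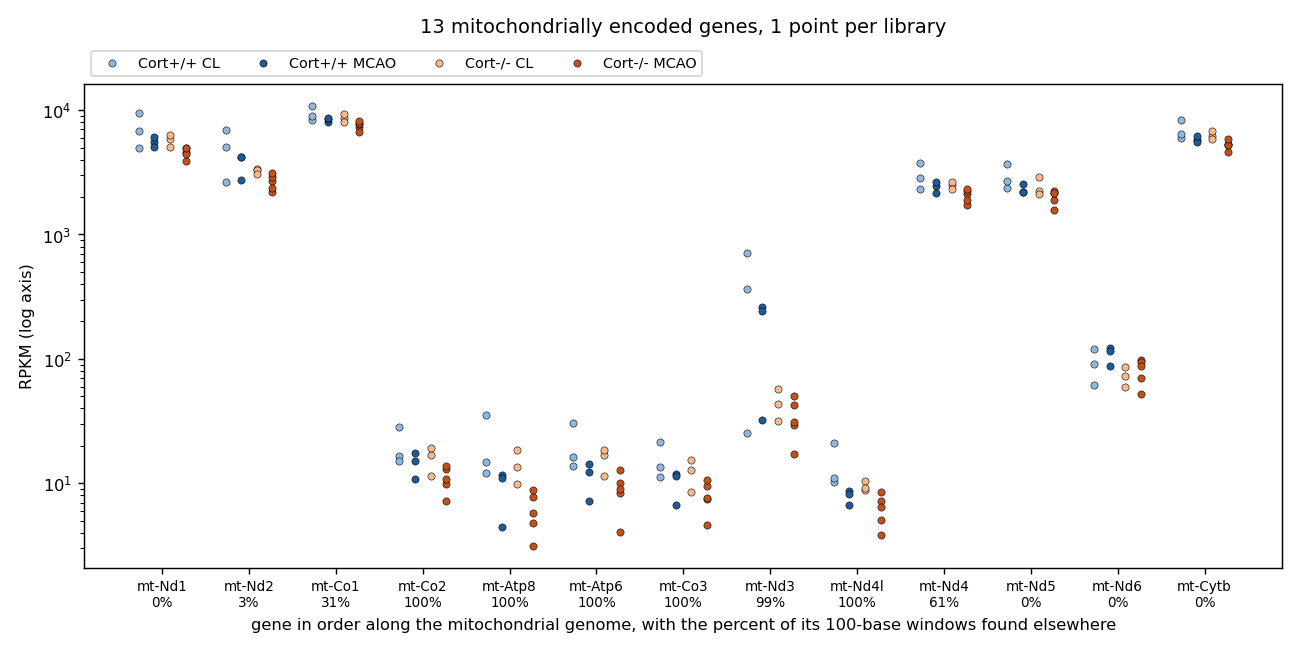
RPKM on a log axis of the 13 mitochondrial genes in genomic order in each of the 14 libraries, by group, with the percent of each gene's 100-base windows found elsewhere in the genome under its name. The 5 genes at 100% lie near 10 RPKM, mt-Nd3 is split among the Cort+/+ libraries, and mt-Nd6 is the only gene whose ischemic values lie higher on average in both genotypes.

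mt-Nd6, a complex I subunit, is the only protein gene on the other strand of the mitochondrial genome (13552 to 14070, minus), and its log2 fold change had the opposite sign, at 0.29 (limma adjusted p = 0.889) in Cort+/+ and 0.12 (adjusted p = 0.883) in Cort-/- mice. It had 61.5, 90.7 and 120.7 RPKM against 121.7, 87.5 and 115.6 RPKM in Cort+/+ mice, and 85.6, 72.5 and 59.9 RPKM against 69.7, 98.2, 94.9, 87.0 and 52.0 RPKM in Cort-/- mice. Both pairs of groups overlapped. Leaving out 1 library at a time gave 0.034 to 0.52 in Cort+/+ and -0.0089 to 0.27 in Cort-/- mice, and the value of mt-Nd6 below 0 was without Cort-/- contralateral replicate 3. Relative to its neighbour mt-Nd5 on the heavy strand, mt-Nd6 was at 2.61% to 3.39% in Cort+/+ contralateral and 3.95% to 5.52% in Cort+/+ ischemic libraries, which did not overlap. In Cort-/- mice the ranges were 2.52% to 3.86% and 2.40% to 6.21%, which did.

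mt-Nd3 set 4 of the 6 Cort+/+ libraries apart from all others. It had 363 and 717 RPKM in Cort+/+ contralateral replicates 2 and 3 and 261 and 244 RPKM in Cort+/+ ischemic replicates 2 and 4. In Cort+/+ contralateral replicate 1 and ischemic replicate 3 it had 25.5 and 32.2 RPKM, inside the 17.3 to 57.8 RPKM of the 8 Cort-/- libraries. The Cort-/- to Cort+/+ log2 fold changes were -2.13 (SE 1.031) in contralateral and -1.98 (SE 0.922) in ischemic hemispheres, with limma adjusted p = 1.0 for each. The split ran within a genotype and across hemispheres, and the labels name no batch.

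mt-Nd2 was the only other member for which the same 4 libraries lay above the other 10, at 4209 to 6912 RPKM, and its ratio to mt-Nd1 was 0.689 to 0.759 in them and 0.520 to 0.627 elsewhere. Mitochondrial tRNA genes divided the libraries in the same way. Their summed RPKM was 13652 to 20623 in the 4 libraries and 2400 to 5138 in the other 10, and 7 of 14 tRNA genes on the strand of mt-Nd3 and 3 of 8 on the other strand had all 4 above all 10. The share of all genes with this pattern is not given here. As the 4 libraries were set apart by these mitochondrial values, the counts of members and tRNA genes are not independent of the choice. mt-Tg, which ends at base 9458 just before mt-Nd3, had 1206 to 3565 RPKM against 74.1 to 271 RPKM, and mt-Tm, which ends at base 3913 just before mt-Nd2, had 4801 to 6456 RPKM against 623 to 1300 RPKM. mt-Tg lies inside the stretch found on chromosome 1 and mt-Tm does not. The summed mitochondrial rRNAs, at 3142 to 4520 RPKM over the 14 libraries, did not divide in this way. The part of tRNA reads in the values of mt-Nd3 and mt-Nd2 was not tested. As the libraries were poly(A)-selected, the tRNA and mt-Nd6 rows need not follow transcript levels. The part of that selection in their values was not tested.

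**Figure D4:**
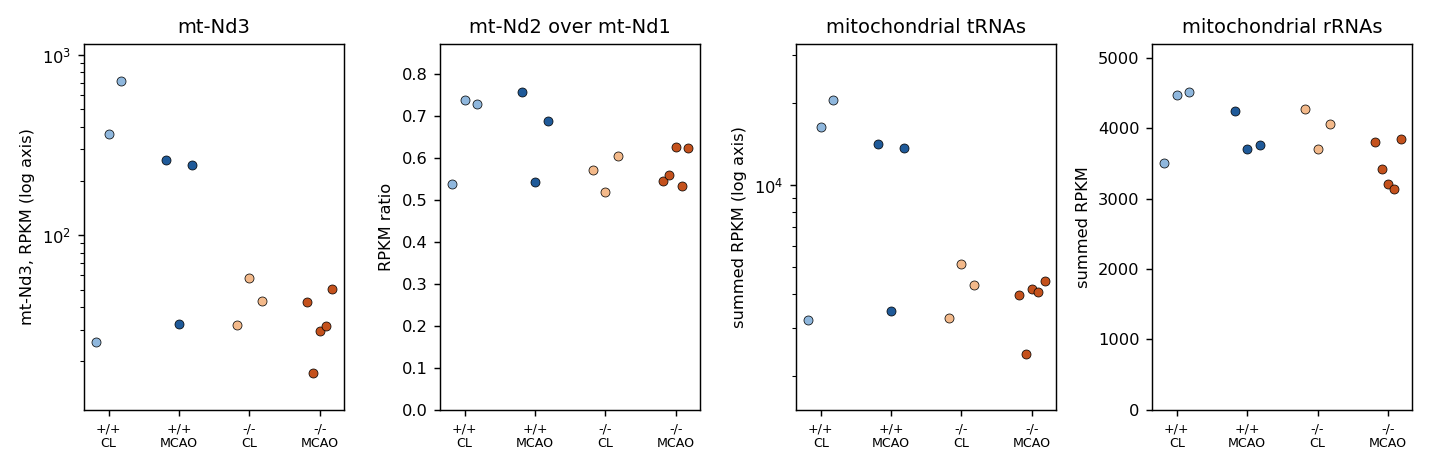
From left to right, mt-Nd3 in RPKM on a log axis, the ratio of mt-Nd2 to mt-Nd1, the summed mitochondrial tRNA genes in RPKM on a log axis and the summed mitochondrial rRNAs in RPKM, with 1 point per library in the 4 groups. The same 4 Cort+/+ libraries are high in the first 3 panels, with mt-Nd3 at 244 to 717 RPKM, and are not apart in the last.

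Summed over genes, the nuclear members had 8100 ± 538 RPKM in Cort+/+ contralateral and 8329 ± 272 RPKM in Cort+/+ ischemic libraries (SD, n = 3 each), and 7703 ± 261 (SD, n = 3) and 8025 ± 199 RPKM (SD, n = 5) in Cort-/- mice. The mitochondrial members had 34668 ± 8648 and 28584 ± 2168 RPKM (SD, n = 3 each) in Cort+/+ mice and 28956 ± 2408 (SD, n = 3) and 24216 ± 2161 RPKM (SD, n = 5) in Cort-/- mice. Cort+/+ contralateral replicate 3 had the highest mitochondrial sum, 43923 RPKM, and also the highest neuron marker sum. As a share of all RPKM the mitochondrial genes were at 7.48% to 11.1% and 7.42% to 8.21% in Cort+/+ hemispheres and at 7.47% to 8.61% and 5.96% to 7.57% in Cort-/- hemispheres, contralateral first, and the ranges overlapped in each genotype.

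The ratio of the mitochondrial to the nuclear sum was 4.29 ± 1.03 contralateral and 3.43 ± 0.150 ischemic in Cort+/+ mice (SD, n = 3 each), with overlapping libraries. In Cort-/- mice it was 3.76 ± 0.252 (SD, n = 3) and 3.02 ± 0.306 (SD, n = 5), and its ranges, 3.47 to 3.93 and 2.61 to 3.45, did not overlap. Neuron markers were lower on the ischemic side for 12 of 15 genes in Cort+/+ and 14 of 15 in Cort-/- mice, and striatal neuron markers for 10 of 10 in each. The summed striatal markers were 442 to 490 against 251 to 410 RPKM in Cort+/+ and 436 to 461 against 212 to 326 RPKM in Cort-/- mice. The part of neuron content in the mitochondrial values was not tested.

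**Figure D5:**
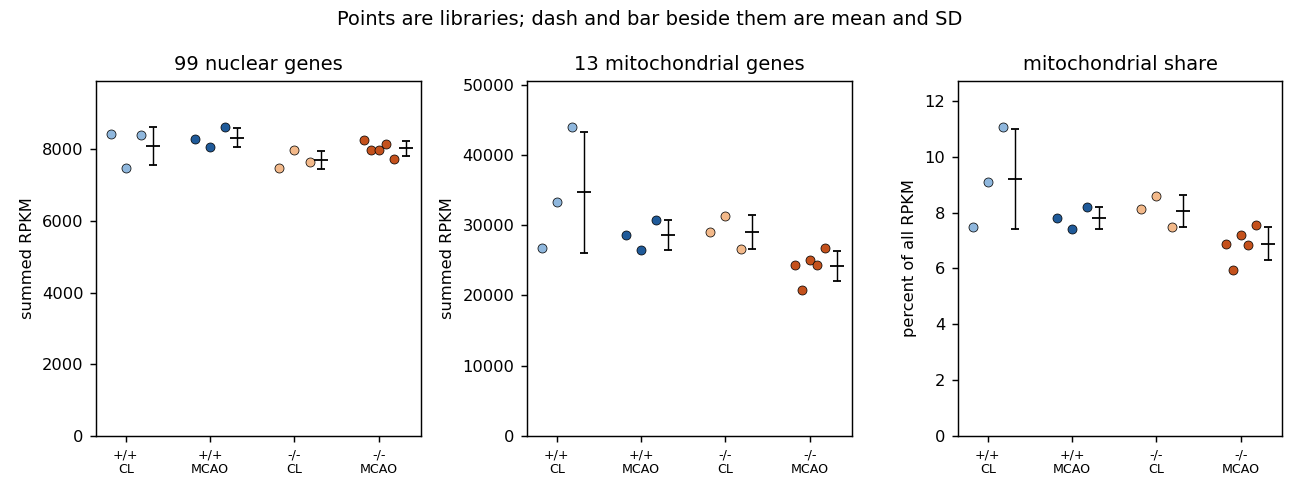
Summed RPKM of the 99 nuclear genes, summed RPKM of the 13 mitochondrial genes and the mitochondrial genes as percent of all RPKM, with 1 point per library in the 4 groups and group mean and SD beside the points. The nuclear sum has group means of 7703 to 8329 RPKM, and the mitochondrial sum and share have their lowest group mean in Cort-/- ischemic libraries.

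Between genotypes limma called 0 of 112 members in the contralateral hemispheres, where it called 7 of 46102 genes, 0.0152%, and 0 of 112 in the ischemic hemispheres, where it called 8 genes, 0.0174%. At an unadjusted p under 0.05 there were 7 lower and 0 higher members on the contralateral side and 3 lower and 0 higher on the ischemic side, and limma-voom called 0 in each. The lower members are 6.25% and 2.68% of the set, against 1.97% and 2.28% of all genes tested and 1.36% and 1.19% of those averaging 1 RPKM or more, and the higher genes were 1.94% and 1.54% of all genes. The median log2 fold change of the nuclear genes, Cort-/- over Cort+/+, was -0.05 in contralateral and -0.04 in ischemic hemispheres, but 0.0025 and 0.018 when each library was rescaled to TPM, a rescaling that moved the median of all genes by 0.040 and 0.041. TPM divides by the sum of all RPKM, mitochondrial rows included. On the contralateral side that sum averaged 373700 RPKM in Cort+/+ and 358298 RPKM in Cort-/- mice. Within it, the 13 mitochondrial members averaged 34668 and 28956 RPKM and the mitochondrial tRNA genes 13415 and 4237 RPKM. The part of these rows in the TPM medians was not tested. The medians of the mitochondrial genes were -0.30 and -0.37, and 13 of 13 were lower in Cort-/- mice in each hemisphere, with medians that stayed below 0 under the 4 other scalings. Leaving out Cort+/+ contralateral replicate 3 brought the contralateral mitochondrial median to -0.040. The 7 less shared genes had medians of -0.25 and -0.23. The 4 Cort+/+ libraries that stood apart were also left out, which leaves 1 library in each Cort+/+ group. The medians of the 11 mitochondrial genes other than mt-Nd2 and mt-Nd3 were then 0.02 in contralateral and -0.17 in ischemic hemispheres. These 4 were set apart by mitochondrial values. The contralateral library left had the lowest mitochondrial sum of its group, 26792 RPKM, so the change of sign is not independent of the choice. The nuclear medians were then -0.11 and -0.0019.

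Markers of several cell types also lay lower in the contralateral hemispheres of Cort-/- mice, and limma called none of them. Oligodendrocyte markers were lower in Cort-/- mice for 10 of 10 genes, with a median log2 fold change of -0.17 and summed levels of 1070 to 1307 RPKM against 1309 to 1372 RPKM in Cort+/+ mice. Endothelial markers were lower for 10 of 10, with a median of -0.18, and their summed levels, given above, did not overlap. Blood markers were lower for 6 of 8, with a median of -0.80 and summed levels of 97.1 to 149 against 127 to 333 RPKM. On the ischemic side 5 of 10, 6 of 10 and 5 of 8 of these lists were lower, in the same order. The contralateral medians were -0.01 for 10 astrocyte, 0.05 for 8 oligodendrocyte precursor and 0.14 for 10 ependymal and choroid plexus markers. Striatal neuron markers were lower for 10 of 10 genes in each hemisphere (medians -0.07 contralateral and -0.29 ischemic), and microglia and macrophage markers were higher for 10 and 11 of 12 (medians 0.07 and 0.25). The part of these cell types in the nuclear and mitochondrial medians was not tested.

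Groups that did not overlap between genotypes were few. In the contralateral hemisphere 5 members, all nuclear, were lower without overlap in Cort-/- mice (Sdha, Cox7a1, Cox7b, Atp5mj and Atp5pb) and 0 were higher, against 2.35% and 3.9% of all genes. In the ischemic hemisphere 2 members, Ndufb5 and mt-Nd1, were lower and 0 were higher, against 1.56% and 0.861% of all genes. The lowest p on the contralateral side belonged to Ndufa3, an accessory subunit of complex I, at 77.0 ± 4.47 RPKM in Cort-/- and 86.2 ± 5.68 RPKM in Cort+/+ mice (SD, n = 3 each, log2 fold change -0.16), followed by Cox7b (-0.18) and Cox7a1 (-0.35). On the ischemic side it belonged to Atp5mj, at 57.8 ± 2.93 (SD, n = 5) against 63.2 ± 2.19 RPKM (SD, n = 3, log2 fold change -0.13), followed by Ndufb1 (-0.13) and Atp5mc1 (-0.14). All of these had limma adjusted p = 1.0. In the higher direction, Sdhc (0.09), Ndufaf8 (0.06) and Ndufc1 (0.06) came first on the contralateral side, and Cox6a2 (0.22), Atp5pf (0.04) and Ndufaf8 (0.07) on the ischemic side.

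By complex, the contralateral medians between genotypes were -0.04 for complex I, -0.03 for complex II, -0.06 for complex III, -0.09 for complex IV and -0.07 for complex V, and 12 of 12 main subunits of complex IV were lower in Cort-/- mice, values that share the TPM dependence of the whole set. The 95% interval lay within 0.5 of 0 for all 79 main subunits in each hemisphere. Of the core subunits, Ndufs1 was at -0.07 and -0.07, Sdha at -0.04 and -0.04, Uqcrc1 at -0.05 and -0.03, Cox4i1 at -0.12 and -0.12 and Atp5f1b at -0.05 and -0.05 in contralateral and ischemic hemispheres.

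The difference between the genotypes in their response to ischemia, tested as an interaction, was called for 0 of 112 members and for 1 of 46102 genes, 0.00217%, by limma, with 2 members at an unadjusted p under 0.05, both higher, 1.79% against 1.5% of all genes higher and 1.82% lower, and 0 called by limma-voom. These 2 were Cox4i2, with an interaction of 0.66, and Cox7a1, with 0.46, both at limma adjusted p = 1.0. For the 79 main subunits the median interaction was 0.02 and all 95% intervals lay within 0.5 of 0. For the mitochondrial genes the median was -0.03, and 3 of 13 intervals did.

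Genes that act around the respiratory chain were described by the same contrasts. Of 40 assembly and expression factors of complexes I to V outside the set, 0 were called between hemispheres in either genotype, with medians of 0.00 and -0.02. Of 16 electron carriers and their enzymes, 1 was called: Etfa, the alpha subunit of the flavoprotein that feeds electrons from fatty acid oxidation to ubiquinone, rose in Cort-/- mice from 14.5 ± 0.387 RPKM (SD, n = 3) to 17.4 ± 0.961 RPKM (SD, n = 5), a log2 fold change of 0.26 (limma adjusted p = 0.0264). In Cort+/+ mice it had 15.2 ± 0.718 and 17.3 ± 0.637 RPKM (SD, n = 3 each, log2 fold change 0.19, limma adjusted p = 0.351). Between Cort-/- hemispheres limma called 1.72% of all genes. Etfb, the partner of Etfa, had 0.15 and 0.16 in Cort+/+ and Cort-/- mice.

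Of 16 tricarboxylic acid cycle genes, 22 genes of mitochondrial DNA expression, 9 regulators of mitochondrial biogenesis and 11 genes of ADP and ATP exchange or uncoupling, none was called between hemispheres in either genotype. Their medians were -0.03 and 0.00, -0.04 and -0.01, -0.03 and -0.07, and 0.01 and 0.02, with Cort+/+ mice first. Nfe2l2, the regulator of the antioxidant response, had 5.69 ± 0.689 and 7.998 ± 1.23 RPKM (SD, n = 3 each) in Cort+/+ and 5.74 ± 0.248 (SD, n = 3) and 8.20 ± 1.01 RPKM (SD, n = 5) in Cort-/- mice, log2 fold changes of 0.48 (limma adjusted p = 0.291) and 0.50 (adjusted p = 0.0541). Ppargc1a, the coactivator that drives expression of respiratory genes, had 9.17 ± 0.380 and 8.26 ± 0.202 RPKM (SD, n = 3 each) in Cort+/+ mice, a log2 fold change of -0.15 (limma adjusted p = 0.579).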

How the data were processed

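Poly(A)-selected stranded libraries from 14 mouse hemispheres had been sequenced as paired 100-base reads and processed by the authors with reanalyzerGSE 3.0.0 on GRCm39 with GENCODE M28, and the deposited values are RPKM per gene. The scaling behind the RPKM, the strand setting and the rule for reads with several matches are not given in the sources used here. Per the study's methods, replicates that did not group clearly were left out of comparisons in which variability was high, with at least 3 kept, and which comparisons these were is not stated. Such a choice can narrow the spread between libraries. The study's methods give 5 ischemic replicates, while the labels hold only replicates 2, 3 and 4 of the Cort+/+ ischemic group. Whether this choice touched these 3 libraries is not stated. Groups and replicate numbers came from the labels.

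Rows above 0 in at least 2 libraries (46102 of 46904) were fitted as log2(RPKM + 0.1) with limma 3.58.1 in R 4.3.3, as a 4-group model with a variance trend. The 5 contrasts were ischemic against contralateral in each genotype, Cort-/- against Cort+/+ in each hemisphere, and their interaction, each adjusted over all genes by the Benjamini-Hochberg method. A fold change on this scale understates that of low genes. Whole reads could be recovered from the RPKM steps for all 495656 values above 0, with a tolerance of 0.001 reads, and limma-voom was run on them as an alternative. Sharing of 100-base windows was counted on GRCm39 with GENCODE M39 gene models (numba 0.67.0, numpy 2.4.6, pandas 2.3.3). The model was tested on simulated data. Sums and shares over members are given without a test, and correlations across genes without a p, since genes are not independent replicates.

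The members and gene lists were chosen with earlier results of these data known. Genes named with values were all mitochondrial members, fixed core subunits and isoform pairs, any member called in a contrast, and in each 2-group contrast the 3 members of lowest p in each direction with a mean of at least 1 RPKM. From the other lists the members of lowest p were considered. Genes named because their groups do not overlap were chosen after their values were seen.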

Additional observations from a re-analysis of the deposited data

Results flagged for a closer look

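Among the 53 values tested in the group of 5 Cort-/- ischemic libraries (named genes and the mitochondrial share), 2 stood further from the rest than the critical gap allows, where chance alone flags about 1 in 20. Both were core proteins of complex III in replicate 5. Uqcrc1 was at 115.5 RPKM there against 124.2 to 127.1 RPKM in the other 4 libraries, with a gap of 0.751 of the whole range. Uqcrfs1 was at 57.95 RPKM against 63.3 to 65.3 RPKM, with a gap of 0.718 of the range. The critical value was 0.71, and 4 of all 112 members passed it in this group.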

How the results depend on the processing

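The counts of called members, the medians and the mitochondrial share were recomputed under other pseudocounts, filters, scalings, weights and tests, with each library left out, and with a replicate block. The settings chosen after seeing the data, described below, were counted with them. Of all these values, 394 kept their value within the spread or their side of the threshold, 11 moved and 4 gained calls. The spread was an SD of 0.054 for nuclear and 0.284 for mitochondrial medians. This is near the size of the medians themselves, so a median could shrink greatly and still count as kept. Some uncalled medians changed sign, as given below. The replicate block moved the Cort+/+ mitochondrial median from -0.31 to -0.59 and changed no member's call. Same-numbered libraries had correlations of 0.316 and -0.141 in Cort+/+ and of -0.064, -0.239 and 0.027 in Cort-/- mice. The value of 0.316 was the highest of any Cort+/+ combination. So few same-numbered libraries cannot settle whether they are pairs, and the numbers were not taken as pairs. TPM, whose divisor includes the mitochondrial rows, turned the nuclear medians between genotypes to 0.0025 contralateral and 0.018 ischemic. Leaving out Cort+/+ contralateral replicate 2 turned the nuclear median between Cort+/+ hemispheres to -0.0011. In Cort-/- mice, a mean of at least 0.5 RPKM called 1 member (Cox7a1) and limma-voom called 1 (Atp5mf) between hemispheres, and voom gave a nuclear median of 0.139. Taken over the members alone, the relative difference of the mitochondrial share was -4.97% between Cort-/- hemispheres and -3.09% between genotypes in ischemic hemispheres. That of the share of all RPKM was -14.7% and -11.8%. The mitochondrial genes make up most of the members' summed RPKM, so the share over members can move little. The sizes of these differences are therefore not comparable. The ratio of the mitochondrial to the nuclear sum averaged 3.76 and 3.02 in Cort-/- contralateral and ischemic libraries, and 3.43 in Cort+/+ ischemic libraries.

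Leaving out 1 library at a time gave 0 to 1 calls between Cort+/+ hemispheres (Ndufc1, without contralateral replicate 2) and 0 to 2 between Cort-/- hemispheres (Atp5mj and Cox7a1, without ischemic replicate 3), with 0 in every other contrast. The mitochondrial medians then ran from -0.53 to -0.087 between Cort+/+ and from -0.41 to -0.23 between Cort-/- hemispheres, the weakest being without Cort+/+ contralateral replicate 3. Quantile normalization gave -0.16 and -0.083. The 7 less shared genes, chosen after seeing the data, gave -0.27 and -0.26. The 4 Cort+/+ libraries that stood apart were also left out, a choice made after seeing the data. This left 1 library in each Cort+/+ group, assumed to vary like the other groups. The nuclear medians were then -0.048 between Cort+/+ hemispheres and -0.110 between contralateral hemispheres of the genotypes. The mitochondrial median was 0.018 in the latter contrast, and the relative differences of the mitochondrial share were -0.811% and 8.01% in these 2 contrasts. As the 4 libraries were set apart by mitochondrial values, these mitochondrial values are not independent of the choice. Leaving out the other 2 Cort+/+ libraries instead was run too. It enters the tally above, but its values are not given, since it keeps the libraries that stand apart.

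With 3 libraries in most groups, a difference of the size of the mitochondrial medians could not be told from the spread of the mitochondrial genes, whose intervals were seldom within 0.5 of 0.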
